A study of Homo sapiens with 16 samples.

Results

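The genes described here are 8 receptor-type protein tyrosine phosphatases whose genomic spans differ widely, PTPRM, PTPRG, PTPRK, PTPRJ, PTPRS, PTPRE, PTPRA and PTPRF. They were found by symbol among the 57820 genes of the deposited table, and all 8 were among the 18149 genes tested. The span of a gene is the distance between the first and last base of its annotation in the table, on GRCh37. The 8 were listed with earlier results of these libraries known, including their RNA levels and their cisplatin responses. Levels and cisplatin responses of the 8 are therefore given as descriptions, with no p-value. The differences between PRMT1-depleted and control cells were tested, although they share libraries with the cisplatin responses. The difference between the cisplatin responses was tested too, although it is computed from the responses that were known.

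RNA was sequenced from SK-OV-3, an established human ovarian carcinoma cell line. The control population carried a scrambled short hairpin RNA (shScramble), and the other populations carried 1 of 3 shRNAs against PRMT1 (shPRMT1 #1, shPRMT1 #3 and shPRMT1 #5). PRMT1 is the main enzyme that makes asymmetric dimethylarginine on proteins. Each population was either untreated or exposed to cisplatin, a drug that crosslinks DNA, at 20 µM for 24 h. The 8 groups had 2 biological replicates each, 16 libraries in all. All groups share the same parental line and an shRNA vector, so no cells without a hairpin were compared. How replicate cultures were separated is not stated, so p-values measure the spread between these libraries, which may be technical.

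Receptor-type tyrosine phosphatases span the plasma membrane once and remove phosphate from tyrosines in the cytoplasm. Their outer parts resemble adhesion molecules, and most carry a membrane-proximal catalytic domain followed by a second, largely inactive phosphatase domain. They are grouped by their outer parts. PTPRM and PTPRK bind copies of themselves on neighbouring cells and act at cadherin junctions. PTPRG carries a carbonic anhydrase-like domain and binds contactins. PTPRJ has fibronectin type III repeats and acts on receptor tyrosine kinases. PTPRS and PTPRF belong to the LAR group, bind heparan sulphate proteoglycans and recruit liprins. PTPRA and PTPRE have short, heavily glycosylated outer parts, and both can activate SRC-family kinases. In epithelial tumour lines these enzymes are known for their roles in cell contact and growth factor signalling.

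The catalytic loop is shown because it is what the 8 proteins share while their genes differ in size. For each gene, the longest coding sequence among protein-coding transcripts tagged as principal by APPRIS was used (GENCODE v29, GRCh38). It was searched for the signature motif of the family. The 8 codons from the motif's histidine codon to its arginine codon were taken at the first match. The capitals mark the codon of the catalytic cysteine, which attacks the phosphate.
PTPRM: cacTGCagtgctggtgcagggagg
PTPRK: catTGCagtgctggtgctggacga
PTPRG: cacTGCagtgctggtgtgggcaga
PTPRJ: catTGCagtgctggggtcggaagg
PTPRS: cacTGCagtgccggtgtgggccgc
PTPRF: cacTGCagcgcgggcgtgggccgc
PTPRA: cacTGCagtgcaggtgtagggcgt
PTPRE: cacTGTagcgcgggcgtgggccgg
The 8 DNA stretches were all different, and they encoded 2 versions of the loop. PTPRK and PTPRM encoded the same version, and the other 6 genes encoded the other one. Against PTPRG, the 24 bases differed at 3 positions in PTPRS, 4 in PTPRM, 5 in PTPRA, PTPRF, PTPRJ and PTPRK, and 6 in PTPRE. PTPRG and PTPRJ had 1 match to the motif in their coding sequence, and the other 6 genes had 2.

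The genes themselves fell into 3 long ones and 5 shorter ones. PTPRM (ENSG00000173482.12, chromosome 18, 7566779 to 8406859, plus strand) spanned 840 kb. PTPRG (ENSG00000144724.14, chromosome 3, 61547242 to 62283288, plus strand) spanned 736 kb, and PTPRK (ENSG00000152894.10, chromosome 6, 128289923 to 128841870, minus strand) 552 kb. The proteins of these coding sequences counted 1452, 1445 and 1440 residues, and those of the 5 shorter genes 700 (PTPRE), 802 (PTPRA), 1337 (PTPRJ), 1907 (PTPRF) and 1910 (PTPRS). PTPRJ (ENSG00000149177.8, chromosome 11, 48002112 to 48189670, plus strand) spanned 188 kb and PTPRS (ENSG00000105426.10, chromosome 19, 5158505 to 5340814, minus strand) 182 kb. PTPRE (ENSG00000132334.12, chromosome 10, 129705324 to 129884119, plus strand) spanned 179 kb and PTPRA (ENSG00000132670.16, chromosome 20, 2844829 to 3019722, plus strand) 175 kb. PTPRF (ENSG00000142949.12, chromosome 1, 43990857 to 44089343, plus strand) was the shortest gene at 98.5 kb.

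Where the length lies also differed, as read from the same GENCODE v29 transcripts. The first intron measured 206 kb in PTPRM, 187 kb in PTPRG and 123 kb in PTPRK. PTPRJ, a much shorter gene, had a first intron of 129 kb, which is 68.8% of its transcript's span. In PTPRE the first intron was 75 kb, in PTPRS 11.7 kb, in PTPRF 7.11 kb and in PTPRA 0.077 kb. The PTPRS transcript used spanned 79.6 kb, less than its annotated gene, so the span used for PTPRS includes sequence outside this transcript. Introns over 50 kb numbered 5 in PTPRK, 4 in PTPRM, 4 in PTPRG, 2 in PTPRE, 1 in PTPRJ, 1 in PTPRA, and 0 in PTPRF and PTPRS.

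The sequences upstream of the starts of the 3 long genes are given because their RNAs did not respond alike to cisplatin. They are the 250 bases before the first start listed per gene in the RefSeq table (GRCh38.p14), 5′ to 3′ on the gene's strand. Capitals mark GC boxes (GGGCGG, or CCGCCC on the other strand), the element bound by SP-family factors.
PTPRM, chr18:7567066-7567315, plus strand: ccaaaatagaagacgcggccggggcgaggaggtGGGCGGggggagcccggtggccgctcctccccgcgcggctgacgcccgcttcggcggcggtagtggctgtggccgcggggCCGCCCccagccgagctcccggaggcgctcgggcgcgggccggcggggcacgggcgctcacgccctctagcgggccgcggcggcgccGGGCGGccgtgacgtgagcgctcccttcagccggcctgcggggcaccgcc
PTPRG, chr3:61561321-61561570, plus strand: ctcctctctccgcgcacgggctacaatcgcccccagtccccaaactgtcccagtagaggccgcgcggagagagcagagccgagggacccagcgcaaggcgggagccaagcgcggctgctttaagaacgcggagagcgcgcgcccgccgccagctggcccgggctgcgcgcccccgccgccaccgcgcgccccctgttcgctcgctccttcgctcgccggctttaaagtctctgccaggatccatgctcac
PTPRK, chr6:128520600-128520849, minus strand: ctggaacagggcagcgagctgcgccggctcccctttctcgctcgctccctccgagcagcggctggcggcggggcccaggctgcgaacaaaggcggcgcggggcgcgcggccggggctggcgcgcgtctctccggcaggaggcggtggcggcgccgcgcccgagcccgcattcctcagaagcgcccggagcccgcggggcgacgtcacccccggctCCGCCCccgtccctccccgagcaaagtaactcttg
The first PTPRM window held 3 GC boxes, the PTPRK window 1 and the PTPRG window 0. Their GC content was 81.6%, 77.2% and 71.2%, against a median of 58% over all 35116 windows in the table. A second PTPRM start, with its window at 7946625 to 7946874, had 0 GC boxes, 1 match to TATAAA (or TTTATA, its reverse) and 36.4% GC. A GC box was present in 42.6% of all windows and TATAAA in 10.7%. Of the 8 genes, 7 had an entry, with 12 start windows among them, and 5 of the 12 held a GC box. PTPRJ had no entry. A match describes letters only, and no binding was measured.

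The libraries held between 12289319 and 16039782 reads, recovered from the steps of the values. RPKM divides a gene's reads by the length of its model and by the library total. PRMT1 was lower in all 12 shPRMT1 libraries, at 4.12 to 10.4 RPKM, than in the 4 shScramble libraries, at 17.8 to 23.5 RPKM. The mean PRMT1 level was 28.8% of shScramble with shPRMT1 #1, 24.2% with #3 and 39.4% with #5 in untreated cells, and 27.6%, 21.6% and 43.1% under cisplatin. Of 9 markers of ovarian carcinoma lines, 8 had a median of at least 1 RPKM, and MUC16 did not. Of 15 measured markers of fibroblasts, endothelium and leukocytes, 4 reached that median (COL1A1, COL1A2, COL3A1 and LUM), and 7 never reached 0.5 RPKM. The summed level of these 15 ran from 20.1 to 81.1 RPKM over the 16 libraries. PTPRC, the phosphatase that defines leukocytes, did not exceed 0.112 RPKM, and CDH5 of endothelium was at or near 0. No gene model of at least 500 bases held more than 1.84 reads per base in any library. The 8 phosphatases had at most 0.709, so they lay below that level, and what sets it was not tested.

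In untreated shScramble cells, PTPRF and PTPRA were the most abundant of the 8 per length, at means of 35.6 ± 3.38 and 33 ± 0.906 RPKM (SD, n = 2). The libraries of this pair overlapped. PTPRK followed at 25.1 ± 2.38, PTPRJ at 20.3 ± 3.18 and PTPRM at 18 ± 1.46, with PTPRJ and PTPRM overlapping. PTPRG at 15 ± 0.662 and PTPRS at 14.3 ± 3.36 overlapped as well, and PTPRE was the lowest at 2.98 ± 0.0701. Under cisplatin the long genes PTPRM and PTPRG moved to the bottom of this order, at 1.12 ± 0.00985 and 0.626 ± 0.156 RPKM, below PTPRE at 1.63 ± 0.232. PTPRF and PTPRA stayed at the top, at 26.8 ± 3.64 and 23.3 ± 0.725 RPKM.

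**Figure D1:**
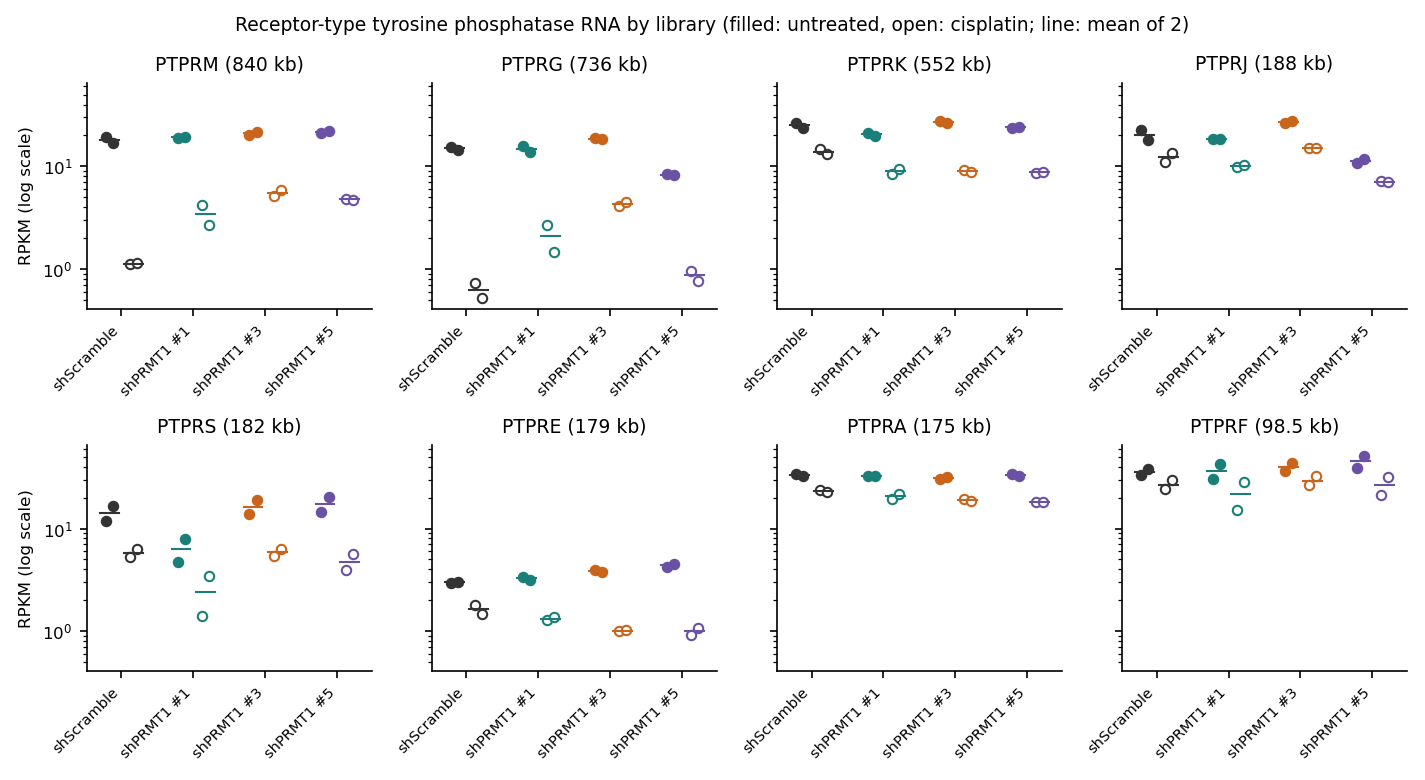
RPKM (log axis) of the 8 phosphatase genes in each of the 16 libraries, with filled points for untreated and open points for cisplatin libraries and a line at the mean of the 2 replicates. PTPRM and PTPRG are lowest in the shScramble cisplatin libraries, at 0.515 to 1.13 RPKM, while the other genes lie closer to their untreated levels.

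All 8 RNAs had lower mean levels under cisplatin in shScramble cells and in shPRMT1 cells. Since the genes were listed with these responses in view, no test result is given for the 8. Over all tested genes, 14.7% were called lower in shScramble cells (limma, adjusted p under 0.05). With the 3 PRMT1 shRNAs averaged, 23.6% were called lower. In bulk RNA, fewer cells with an RNA and less of it per cell cannot be told apart. A lower share of one RNA also does not give its absolute amount, because RPKM values are relative to the library total.

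PRMT1 depletion was tested at 3 points. In untreated cells 0 of the 8 genes were called, where 8.24% of all tested genes were called in either direction. PTPRE alone had an unadjusted p under 0.05. PTPRE was the 1 gene of the 8 called with the replicate number as a block, where 20.3% of genes were called, and with voom on recovered reads, where 9.24% were. Under cisplatin 2 of the 8 were higher in shPRMT1 than in shScramble cells and 3 were lower, where 10.4% and 9.36% of tested genes were called. Higher calls made up 52.7% of all calls there, and 65.8% when the libraries were scaled to a common median. The difference between the cisplatin responses was called for 2 genes in the positive and 2 in the negative direction, where 2.08% and 3.11% of tested genes were called. Positive calls made up 40.1% of them, and 52.5% with a common median. The block called 34.6% of genes under cisplatin and 14% for the difference between responses, in either direction, and added PTPRS to the lower genes and PTPRA to the negative ones. For each shRNA alone, the share of genes called was 9.09%, 8.09% and 13.4% untreated, 10.9%, 13.9% and 22.5% under cisplatin, and 1.47%, 3.21% and 3.5% for the difference between responses, in the order #1, #3 and #5. With the block it was 22.6% for #1 and 19.1% for #3 untreated, 24.7% for #1 under cisplatin and 6.1% for #1 in the difference, and with voom 9.04% for #3 untreated. The median difference between responses was -0.23 over the 8 genes and 0.02 over all genes, on the log2(RPKM + 1) scale used for every log2 value here unless stated.

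PTPRM, the long adhesion phosphatase, lost most of its RNA under cisplatin in control cells and kept more of it in PRMT1-depleted cells. In shScramble cells it measured 19.1 and 17 RPKM untreated and 1.11 and 1.13 RPKM under cisplatin, from 162 and 169 reads. The level left was 6.21% of the untreated mean, a 16.1-fold fall and a log2 change of -3.16 ± 0.14 (SE). The treated and untreated libraries lay far apart. In treated shPRMT1 cells it measured 4.15 and 2.7 RPKM with #1, 5.08 and 5.84 with #3, and 4.76 and 4.73 with #5. All 6 of these libraries lay above both treated shScramble libraries, and 17.9%, 25.9% and 21.9% of the untreated mean was left. Untreated shPRMT1 cells measured 18.9 and 19.4 RPKM with #1, 20.4 and 21.7 with #3, and 21.2 and 22 with #5, beside 19.1 and 17 in shScramble cells. The untreated difference of 0.18 ± 0.11 did not pass the test (limma, adjusted p = 0.395). The difference under cisplatin was 1.36 ± 0.11 (limma, adjusted p = 6.38e-05), and each shRNA alone passed, at 1.04, 1.60 and 1.44 for #1, #3 and #5. The response differed between populations by 1.18 ± 0.16 (limma, adjusted p = 0.00329). It passed for each shRNA alone as well, at 0.96 (adjusted p = 0.0407), 1.39 (0.00707) and 1.19 (0.00962), but for #1 the call ended under 14 of the 16 fits that left out a library, with an adjusted p of up to 0.156. The averaged difference passed in all 16 such fits, at 1.10 to 1.26.

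PTPRK, which has the same domain layout as PTPRM and also a long gene, kept far more of its RNA. It measured 26.7 and 23.4 RPKM in untreated and 14.6 and 13.2 RPKM in treated shScramble cells. That left 55.5% of the mean, a log2 change of -0.80. The share left was smaller in all 3 depleted populations, opposite to PTPRM. Treated shPRMT1 libraries measured 8.45 and 9.44 RPKM with #1, 9.17 and 8.89 with #3, and 8.67 and 8.77 with #5, all below both treated shScramble libraries. The untreated levels were 21.1 and 19.9, 27.5 and 26.5, and 23.7 and 24.3 RPKM in the same order, on both sides of the control. The share of the untreated mean left under cisplatin was 43.6%, 33.4% and 36.3% with #1, #3 and #5. The difference under cisplatin was -0.59 ± 0.07 (limma, adjusted p = 0.000452), and it passed for each shRNA at -0.58, -0.57 and -0.62. Untreated, the difference was -0.07 ± 0.07 (adjusted p = 0.638). With #1 alone it was -0.27 (adjusted p = 0.0792, and 0.0247 with the replicate block). The responses differed by -0.52 ± 0.10 (adjusted p = 0.0173). That call ended when libraries were scaled to a common median (adjusted p = 0.136), without shScramble cisplatin replicate 1 (0.118) and without untreated shScramble replicate 2 (0.112). Per shRNA the difference between responses was -0.31 with #1 (adjusted p = 0.3), -0.68 with #3 (0.0178) and -0.56 with #5 (0.0341). With #1 it was called in 0 of 16 fits that left out a library, with #3 in 10, at up to 0.0867, and with #5 in 3, at up to 0.144.

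PTPRG, the carbonic anhydrase-like receptor, had the deepest fall of the 8 in control cells. It measured 15.5 and 14.5 RPKM in untreated shScramble cells and 0.736 and 0.515 RPKM under cisplatin, from 158 and 114 reads. The level left was 4.17%, a 24-fold fall of the means and a log2 change of -3.30 ± 0.16. Because the added 1 RPKM weighs on such low values, the log2 change was -4.62 with voom on recovered reads. The depleted populations differed from each other. With #3 it measured 18.8 and 18.3 RPKM untreated and 4.1 and 4.5 treated, with 23.2% left. With #1 it measured 15.6 and 13.9 untreated and 2.68 and 1.46 treated, with 14% left. With #5 the untreated level was already lower, at 8.38 and 8.22 RPKM, and 0.962 and 0.763 RPKM or 10.4% was left under cisplatin. All 6 treated shPRMT1 libraries lay above both treated shScramble libraries, although those of #5 lay close to them. The averaged difference was -0.17 ± 0.13 untreated (limma, adjusted p = 0.535) and 0.93 ± 0.13 under cisplatin (adjusted p = 0.00106). By shRNA, the difference under cisplatin was 1.71 ± 0.16 with #3 (adjusted p = 0.000257), 0.89 ± 0.16 with #1 (0.00765) and 0.20 ± 0.16 with #5 (0.445). The #1 call ended without shScramble cisplatin replicate 2 (0.79, adjusted p = 0.0567). The responses differed by 1.11 ± 0.19 (adjusted p = 0.00974). This call ended without shScramble cisplatin replicate 2 (1.01, adjusted p = 0.0514) and without untreated shScramble replicate 2 (1.15, adjusted p = 0.0509). Per shRNA the difference between responses was 1.42 with #3 (adjusted p = 0.0129), 0.98 with #5 (0.0469, and 0.0604 with voom) and 0.92 with #1 (0.0903, and 0.0213 with the replicate block). Leaving out any of 4 libraries ended the #3 call, at an adjusted p of up to 0.067, and any of 14 ended the #5 call, at up to 0.156.

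**Figure D2:**
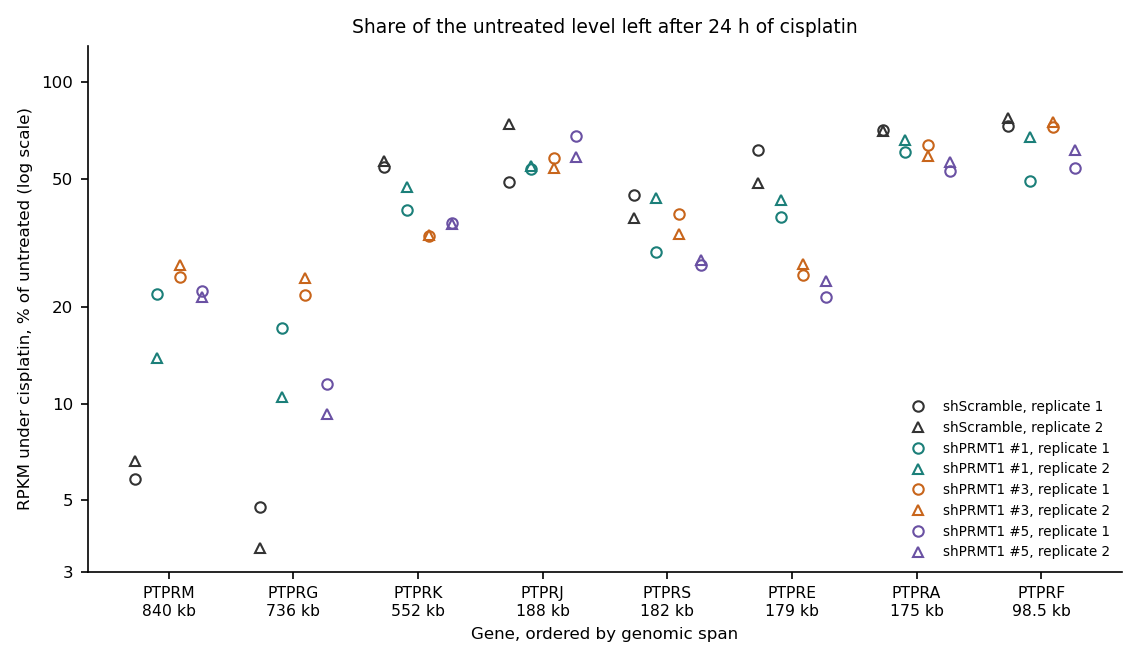
Level under cisplatin as a percentage of the untreated level (log axis) for each gene, ordered by span, in 4 cell populations, with a circle for replicate 1 and a triangle for replicate 2. PTPRM and PTPRG lie at 3.55% to 6.63% in shScramble and at 9.29% to 26.9% in shPRMT1 cells, whereas PTPRK and PTPRE lie lower in shPRMT1 than in shScramble cells.

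PTPRJ, the phosphatase with fibronectin repeats, fell by a similar share in all populations while its untreated level depended on the shRNA. In shScramble cells it measured 22.6 and 18.1 RPKM untreated and 11 and 13.4 RPKM treated, and 60% was left. With #1 the values were 18.5 and 18.5 untreated and 9.89 and 10.2 treated, with 54.2% left. With #3 they were 26.3 and 27.7 untreated and 15.2 and 15 treated, with 56% left. With #5 they were 10.7 and 11.9 untreated and 7.23 and 6.95 treated, with 62.8% left. In both conditions #3 lay above and #5 below every other library. The averaged test passed in neither condition, at -0.17 ± 0.09 untreated (limma, adjusted p = 0.324) and -0.22 ± 0.09 treated (adjusted p = 0.126). PTPRJ was lower with #5 in both, by -0.79 ± 0.11 untreated (adjusted p = 0.00143) and -0.70 ± 0.11 treated (adjusted p = 0.0019). With #3 the untreated difference was 0.40 ± 0.11 (adjusted p = 0.0582, 0.0253 with the replicate block and 0.0477 with voom). The difference between responses was -0.05 ± 0.13 (adjusted p = 0.921).

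PTPRS and PTPRF, the LAR-type receptors, differed between the replicates more than the other 6 genes. PTPRS measured 11.9 and 16.6 RPKM in untreated and 5.29 and 6.29 RPKM in treated shScramble cells, with 40.6% left. PTPRF measured 33.2 and 38 RPKM untreated and 24.2 and 29.4 RPKM treated, with 75.2% left, the largest share of the 8. Both genes were higher in replicate 2 in 8 of 8 groups. The median ratio of replicate 2 to replicate 1 was 1.39 for PTPRS and 1.28 for PTPRF, and lay between 0.916 and 1.03 for the other 6 genes. PTPRS was low with #1, at 4.69 and 7.9 RPKM untreated and 1.39 and 3.43 RPKM treated. Those libraries did not overlap with the other groups of the same condition. With #3 it measured 13.7 and 18.8 untreated and 5.35 and 6.33 treated, and with #5 14.5 and 20.1 untreated and 3.91 and 5.6 treated. The averaged differences of PTPRS were -0.21 ± 0.26 untreated (limma, adjusted p = 0.738) and -0.43 ± 0.26 treated (adjusted p = 0.294). With the replicate block the treated difference passed, at an adjusted p of 0.0159. With #1 alone the untreated difference was -1.08 ± 0.32 (adjusted p = 0.0636) and the treated one -1.06 ± 0.32 (0.0622), and both passed with the block, at 0.000661 and 0.000696. PTPRF in shPRMT1 cells ran from 30.6 to 51.5 RPKM untreated and from 15.1 to 32.4 RPKM treated, overlapping the control in both conditions. Its averaged differences were 0.17 ± 0.24 (adjusted p = 0.782) and -0.08 ± 0.24 (adjusted p = 0.866).

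PTPRA and PTPRE, the members with short outer parts, were at opposite ends of the level scale. Both were lower in depleted cells under cisplatin, as were many genes of 100 to 300 kb, their span class. Of the 2079 tested genes of this class, 27.2% were called lower and 3.37% higher, with a median difference of -0.15. Those below PTPRA numbered 752 and those below PTPRE 626. PTPRA measured 33.7 and 32.4 RPKM in untreated and 23.9 and 22.8 RPKM in treated shScramble cells, with 70.7% left. Treated shPRMT1 libraries measured 19.6 and 21.6 with #1, 19.4 and 18.5 with #3, and 18 and 18.2 with #5, all below the treated control. Untreated, the 6 shPRMT1 libraries lay between 30.5 and 34 RPKM, overlapping the control. The difference was -0.04 ± 0.05 untreated (limma, adjusted p = 0.795) and -0.27 ± 0.05 under cisplatin (adjusted p = 0.00564). By shRNA the treated difference passed with #3 (-0.29, adjusted p = 0.0149) and #5 (-0.35, adjusted p = 0.00404) but not with #1 (-0.17, adjusted p = 0.121, and 0.0462 with the block). The #3 call ended without either treated #3 library (0.0556 and 0.123) and without shScramble cisplatin replicate 1 (0.119). The difference between responses was -0.23 ± 0.08 (adjusted p = 0.112, and 0.0393 with the block), and with #5 alone -0.35 (0.0671, and 0.0203 with the block, where 11.8% of genes were called).

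PTPRE measured 2.93 and 3.03 RPKM in untreated and 1.8 and 1.47 RPKM in treated shScramble cells, with 54.8% left. With #1 it measured 3.36 and 3.17 untreated and 1.28 and 1.37 treated, with 40.5% left. With #3 it measured 3.97 and 3.75 untreated and 1 and 1.02 treated, with 26.2% left. With #5 it measured 4.24 and 4.51 untreated and 0.907 and 1.08 treated, with 22.7% left. So the depleted libraries lay above the control when untreated and below it when treated, 6 of 6 in each condition. The untreated difference was 0.27 ± 0.08 (limma, adjusted p = 0.0713, 0.0409 with the block and 0.0433 with voom). The treated difference was -0.32 ± 0.08 (adjusted p = 0.0209), and the difference between responses was -0.59 ± 0.12 (adjusted p = 0.0184). With #1, #3 and #5 the treated difference was -0.18, -0.39 and -0.40 (adjusted p = 0.321, 0.0293 and 0.0179), and the difference between responses -0.28, -0.67 and -0.83 (0.458, 0.0332 and 0.0133). Of 16 fits that left out a library, 0, 13 and 14 called the treated difference, at up to 0.216 for #3 and 0.136 for #5. The difference between responses was called in 0, 7 and 13, at up to 0.143 for #3 and 0.0635 for #5. PTPRE and PTPRA lost their treated calls under a common median (adjusted p = 0.145 and 0.102), in the fit restricted to the treated libraries (0.134 and 0.0627) and without shScramble cisplatin replicate 1 (0.247 and 0.0903). The difference between responses of PTPRE lost its call under a common median (0.106), without shScramble cisplatin replicate 1 (0.118) and without either untreated shScramble replicate (0.0734 and 0.0843).

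**Figure D3:**
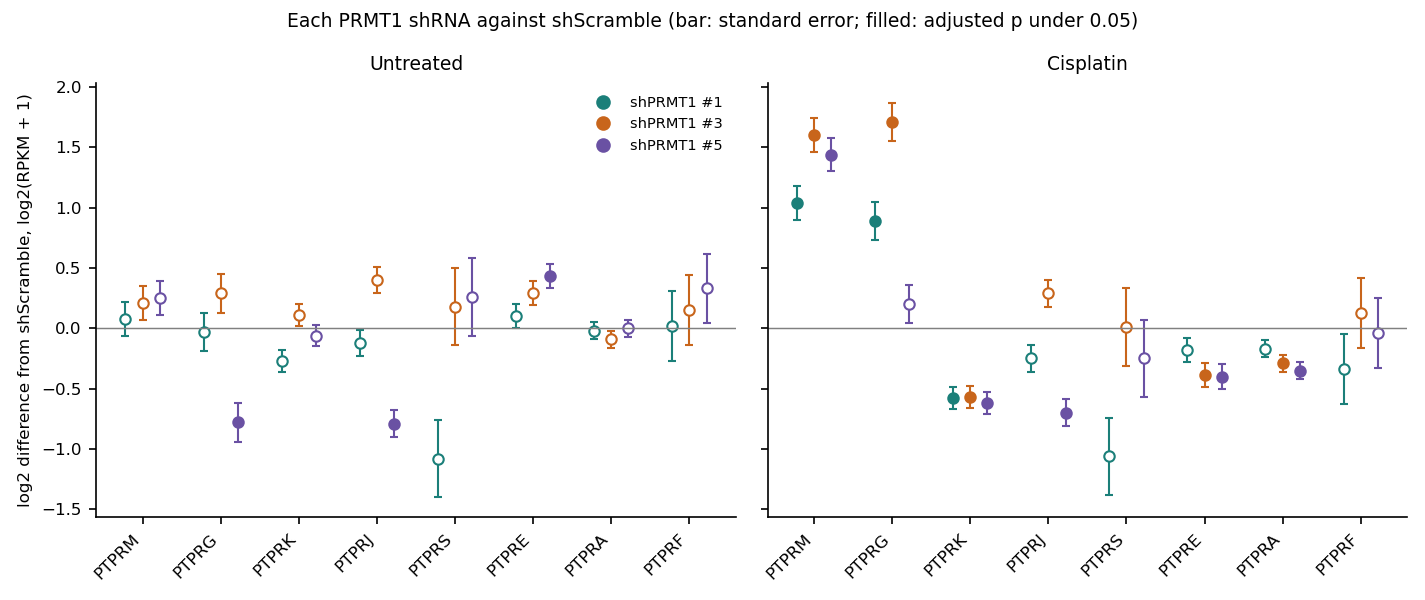
Log2 difference from shScramble, on the log2(RPKM + 1) axis, for each gene and each of the 3 PRMT1 shRNAs, untreated (left) and under cisplatin (right), with bars for the standard error and filled points for adjusted p under 0.05. Under cisplatin PTPRM lies at 1.04 to 1.60 and PTPRK at -0.62 to -0.57 with every shRNA, while PTPRG and PTPRJ separate by shRNA in both panels.

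The populations carrying different shRNAs were also compared with each other, a set of comparisons chosen after the values were seen. Of 48 such differences (8 genes, 3 pairs of shRNAs, 2 conditions), 16 passed the limma test at an adjusted p under 0.05, and 5 passed in all 16 fits that left out a library. Over the 6 sets of comparisons, the share of all tested genes called was 4.62% for #1 against #3, 7.79% for #1 against #5 and 7% for #3 against #5 under cisplatin, and 10%, 16% and 14.4% untreated. Those 5 were differences of PTPRG and PTPRJ involving #5. PTPRJ was higher with #3 than with #5 by 1.19 ± 0.11 untreated (limma, adjusted p = 0.000128) and by 1.00 ± 0.11 treated (0.0013). PTPRG was higher with #3 than with #5 by 1.07 ± 0.16 untreated (limma, adjusted p = 0.0018) and by 1.51 ± 0.16 treated (adjusted p = 0.00101). PTPRJ was also higher with #1 than with #5 untreated, by 0.67 ± 0.11 (limma, adjusted p = 0.00311). PTPRS was lower with #1 than with #3 or #5 untreated, by -1.26 and -1.35 ± 0.32 (limma, adjusted p = 0.0326 and 0.0171). Those calls ended without untreated #1 replicate 1 (-0.94 and -1.02, adjusted p = 0.222 and 0.142), and each also without some other library, at up to 0.214 and 0.121. With the replicate block, 4 further differences were called: PTPRS under cisplatin was lower with #1 than with #3 (-1.07, adjusted p = 0.0997 and 0.000942 with the block) and than with #5 (-0.81, 0.173 and 0.00334), PTPRF under cisplatin was lower with #1 than with #3 (-0.47, 0.488 and 0.0489), and untreated PTPRK was lower with #1 than with #5 (-0.22, 0.121 and 0.0475). The block called 13.6%, 19.2% and 31.3% of all genes in those sets. PRMT1 itself was highest with #5 among the depleted populations, and its part in these differences was not tested.

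Against shScramble, PTPRG was lower with shPRMT1 #5 in untreated cells, by -0.78 ± 0.16 (limma, adjusted p = 0.0107, where 13.4% of tested genes were called in either direction). This ended without either untreated #5 library (0.0521 and 0.0623) or untreated shScramble replicate 1 (0.0724). PTPRE was higher with #5 by 0.43 ± 0.10 (adjusted p = 0.0181), which ended without any of the 4 libraries compared (0.057 to 0.103). Neither direction was called with #1 or #3: PTPRG measured -0.03 and 0.29, and PTPRE 0.10 and 0.29.

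The 8 responses were set beside those of all genes of similar span. In shScramble cells the median cisplatin response of tested genes was 0.01 for spans up to 100 kb (15629 genes), -0.18 for 100 to 300 kb (2079 genes), -0.92 for 300 to 500 kb (301 genes) and -1.17 above 500 kb (140 genes). PTPRM and PTPRG lay far below the typical long gene: 3 and 2 of the 140 genes above 500 kb had a lower response. PTPRK lay above it, with 92 of the 140 genes lower. Among the 2079 genes of 100 to 300 kb, 157 lay below PTPRS, 422 below PTPRJ, 496 below PTPRE and 635 below PTPRA. PTPRF had 2475 of 15629 genes up to 100 kb below it. So every one of the 8 except PTPRK lay below the median of its span class.

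In shPRMT1 cells the medians of the same classes were 0.09, -0.37, -1.19 and -1.29. PTPRM (-1.99) and PTPRG (-2.20) were then nearer the median of long genes, with 38 and 24 of the 140 lower, and PTPRK (-1.32) lay near it, with 68 lower. The difference between responses had a median of -0.02 above 500 kb, with 6.43% of that class called positive and 13.6% negative. PTPRM exceeded 137 and PTPRG 135 of the 140 genes, while PTPRK exceeded 22. For 100 to 300 kb the median was -0.18, with 0.529% called positive and 9.72% negative. Of these 2079 genes, 1452 lay below PTPRJ (-0.05), 939 below PTPRS (-0.22), 890 below PTPRA (-0.23) and 214 below PTPRE (-0.59). For shPRMT1 against shScramble cells under cisplatin, 15.7% of genes above 500 kb were called higher and 20.7% lower. There PTPRM exceeded 138, PTPRG 136 and PTPRK 13 of the 140 genes. Over the 8 genes, log10 span and the response correlated at r = -0.83 in shScramble and -0.87 in shPRMT1 cells (Spearman -0.90 and -0.86). With #1, #3 and #5 alone, r was -0.86, -0.89 and -0.77 (Spearman -0.83, -0.90 and -0.62). These are descriptions over 8 genes that share all libraries and were listed for differing in length.

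**Figure D4:**
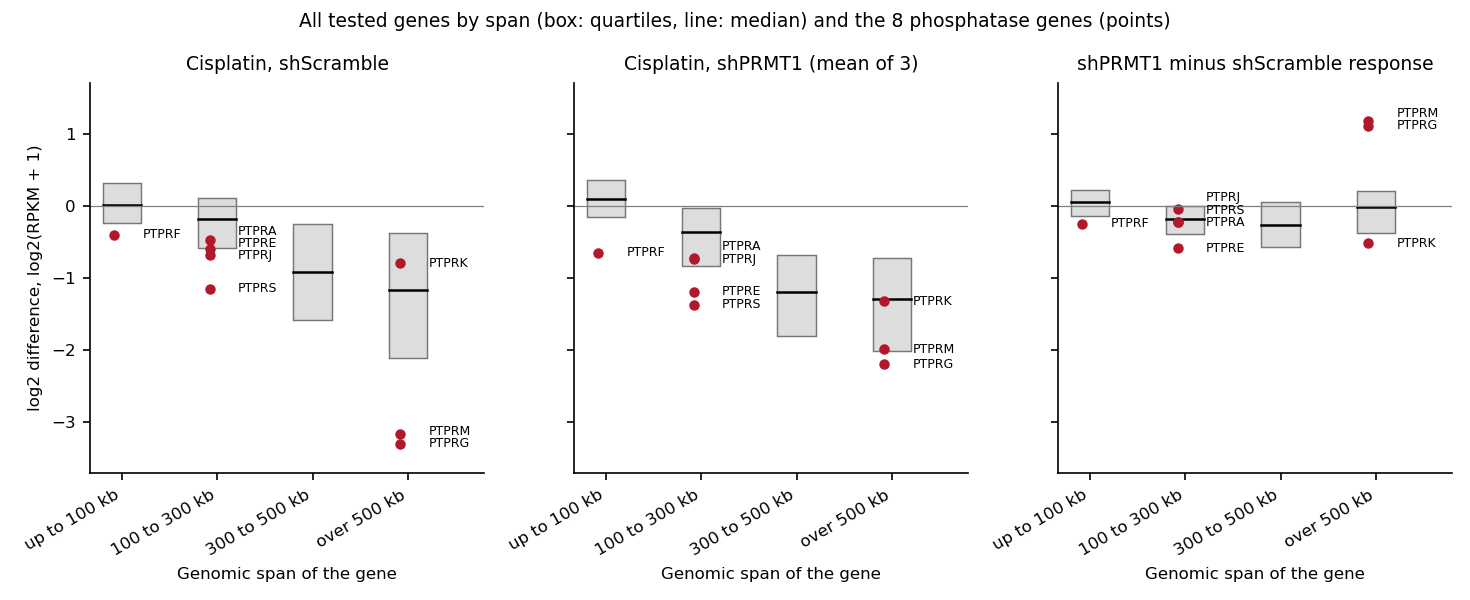
Log2 difference on the log2(RPKM + 1) axis for all tested genes in 4 classes of genomic span (box from the lower to the upper quartile, line at the median) with the 8 phosphatase genes as points, for the cisplatin response in shScramble cells, in shPRMT1 cells, and the difference between them. PTPRM and PTPRG lie below the box of genes over 500 kb in shScramble cells and above it in the difference, while PTPRK lies inside or just below it.

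The other receptor-type phosphatases were given as a list of 12, of which 4 were tested and 7 never reached 0.5 RPKM. This list and those that follow were chosen with earlier results of these libraries known. Their p-values are not independent of that choice. In shScramble cells cisplatin raised 3 of the 4 and lowered 0, where 15.5% of tested genes were called higher and 14.7% lower, with a median of 0.91 against -0.01 over all genes. With the replicate block 1 of the 4 was lower, PTPRU, where 21.3% of genes were called lower. PTPRR, a phosphatase that binds MAP kinases, has a span of 283 kb and rose from 3.9 to 11.9 RPKM on average (1.40 ± 0.16, limma, adjusted p = 7.77e-05). PTPRH rose from 0.542 to 2.79 RPKM (1.28 ± 0.19, adjusted p = 0.000568), and PTPRB, the endothelial phosphatase of TIE2 and VE-cadherin, from 11.8 to 17.7 RPKM (0.55 ± 0.12, adjusted p = 0.00464). All 3 moved opposite to the 8 genes above. Those 8 were taken from the same family with their cisplatin responses known, so this contrast is not a test. PTPRD, the longest gene of this list, was too low to be tested and moved down. It averaged 0.632 RPKM in untreated and 0.0241 RPKM in treated shScramble cells. With #1, #3 and #5 it averaged 0.954, 0.996 and 0.497 RPKM untreated and 0.0442, 0.0738 and 0.0676 RPKM treated. In treated shPRMT1 cells PTPRB and PTPRR were lower than in treated control cells, by -0.67 (limma, adjusted p = 0.00105) and -0.70 (0.00418). The PTPRR call ended without shScramble cisplatin replicate 2 (adjusted p = 0.0572). The response of PTPRB differed by -0.67 (adjusted p = 0.0197), a call that ended without any of 3 shScramble libraries (at up to 0.116). PTPRU, which shares the layout of PTPRM and PTPRK but spans 90.3 kb, fell in shPRMT1 cells by -1.57 ± 0.24 (limma, adjusted p = 0.000216). In shScramble cells it averaged 13 RPKM untreated and 5.77 RPKM treated (adjusted p = 0.0807, and 0.00165 with the replicate block), and the difference between its responses was not called (adjusted p = 0.654). With the block PTPRU was also lower in treated shPRMT1 than in treated shScramble cells (adjusted p = 0.119 and 0.00352 with the block), and the difference between the responses of PTPRR was called (0.052 and 0.0143).

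Of 17 listed non-receptor tyrosine phosphatases, 13 were tested, and cisplatin in shScramble cells raised 1 and lowered 3, against 15.5% and 14.7% of all tested genes, with a median of -0.05. PTPN3, a cytoplasmic phosphatase with a FERM domain, fell from 12.4 to 7.32 RPKM (-0.68 ± 0.09, limma, adjusted p = 0.000284), and PTPN21 rose by 0.46 (adjusted p = 0.00134). Of 31 listed ligands, 14 were tested, and 2 were higher and 4 lower, with a median of -0.42, a share near that of all tested genes (15.5% and 14.7%) for the higher ones. With the replicate block 8 were lower. The glypican GPC6, a heparan sulphate proteoglycan encoded by a very long gene, fell from 7.4 to 0.435 RPKM (-2.55 ± 0.14, limma, adjusted p = 4.92e-07). As with PTPRM, more was left in depleted cells: treated shPRMT1 means were 1.49, 1.55 and 1.9 RPKM, and the responses differed by 0.99 ± 0.16 (adjusted p = 0.00667). That call ended without shScramble cisplatin replicate 1 (adjusted p = 0.0559). IL1RAP, a synaptic ligand of LAR-type phosphatases, rose in shScramble cells (1.09 ± 0.12, adjusted p = 5.94e-05) and its response differed by -1.29 ± 0.14 in depleted cells (adjusted p = 0.0011). Untreated, IL1RAP was already higher in shPRMT1 cells (0.94 ± 0.10, limma, adjusted p = 0.000403). It averaged 4.47 RPKM in untreated shScramble cells and 6.85, 13.6 and 8.95 RPKM with #1, #3 and #5. Treated, it averaged 10.6 RPKM in shScramble cells and 5.96, 12.7 and 6.86 RPKM in the same order.

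Of 27 listed intracellular partners and substrates, 23 were tested, and 0 rose and 6 fell with cisplatin in shScramble cells (median -0.08), against 15.5% and 14.7% of all tested genes. In treated cells 6 were lower and 1 higher with PRMT1 depletion (median -0.04), against 9.36% and 10.4% of all genes. With the block 3 rather than 1 were higher. EGFR, a receptor kinase that several of these phosphatases act on, averaged 23.7 RPKM in treated shScramble cells and 12.5, 14 and 12.2 RPKM in treated shPRMT1 cells (-0.83 ± 0.08, limma, adjusted p = 0.000158). FYN, a SRC-family kinase, was lower by -0.70 ± 0.10 (adjusted p = 0.000924), and the scaffold CASK by -0.56 ± 0.08 (adjusted p = 0.00106). The cisplatin response of CASK (-0.67), TRIO (-0.77) and FYN (-0.75) was more negative in depleted cells (limma, adjusted p = 0.00972, 0.00975 and 0.0139). Each of these 3 calls ended without shScramble cisplatin replicate 1 or untreated shScramble replicate 2, at an adjusted p of 0.0658 to 0.104. These genes span 409, 388 and 213 kb, and their direction was that of PTPRK and PTPRE rather than that of PTPRM and PTPRG. In the difference between responses, 23.6% of tested genes of 300 to 500 kb were called negative and 2.66% positive, with a median of -0.27. For 100 to 300 kb these shares were 9.72% and 0.529%. Under cisplatin, 40.9% of genes of 300 to 500 kb and 27.2% of those of 100 to 300 kb were called lower with PRMT1 depletion.

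Of the 15 markers of other cell types, 7 were tested, and 4 were higher and 1 lower in treated shPRMT1 than in treated shScramble cells, where 10.4% and 9.36% of all tested genes were called. Their summed mean level was 61.2 RPKM in untreated and 21.7 RPKM in treated shScramble cells, and 29.5, 31.2 and 47.6 RPKM in treated cells with #1, #3 and #5. COL1A2, a collagen chain of fibroblasts, averaged 2.09 RPKM in treated shScramble cells and 2.9, 5.09 and 5 RPKM in treated shPRMT1 cells. Among the other fibroblast markers, COL1A1, COL3A1 and DCN also averaged higher in treated cells with every shRNA. LUM did so with #1 and #5 but not with #3. PDGFRA and PDGFRB averaged lower with every shRNA, and never exceeded 0.231 and 0.287 RPKM in any library. The summed level and COL1A2 moved in the same direction as PTPRM and PTPRG, and their part in the result was not tested. CD14 and CD79A, which mark monocytes and B cells, averaged 0.195 and 0.377 RPKM in treated shScramble cells. With #1, #3 and #5 they averaged 1.12, 1.31 and 2.16 RPKM (CD14, 1.05 ± 0.15, limma, adjusted p = 0.00106) and 1.61, 1.56 and 2.5 RPKM (CD79A, 1.05 ± 0.15, adjusted p = 0.000954). KDR, an endothelial receptor, was lower (-0.43 ± 0.12, adjusted p = 0.0293). PTPRC and CDH5 did not exceed 0.112 and 0.0555 RPKM in any library.

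Other annotated genes overlap 7 of the 8 spans, 28 genes in all, and the libraries did not mark the strand. Only 4 had a median of at least 1 RPKM. VPS16, on the same strand as PTPRA with 2550 shared bases, ran from 16.2 to 23.2 RPKM, a level near that of PTPRA. RP11-4C20.4, on the same strand within PTPRE, averaged 1.5 RPKM in untreated and 2.9 RPKM in treated shScramble cells, and 4.81 and 3.51 RPKM with #5, so its direction under cisplatin was opposite to that of PTPRE in the former and the same in the latter. Untreated, it averaged 2.19, 3.56 and 4.81 RPKM with #1, #3 and #5, in the same order as PTPRE at 3.26, 3.86 and 4.38 RPKM. RP11-4C20.3, on the opposite strand of PTPRE, averaged 0.509 and 0.852 RPKM, and RPL10AP6, opposite PTPRG, 5.59 and 6.02 RPKM. PTPRG-AS1, the antisense gene of PTPRG, averaged 0.271 RPKM in untreated and 1.02 RPKM in treated shScramble cells, and 0.48 to 0.524 RPKM in treated shPRMT1 cells. At this depth some of the reads counted to PTPRG and to PTPRG-AS1 could belong to the other strand.

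Tested genes averaging 5 RPKM or more were ranked by the correlation of log2(RPKM + 1) with each of the 8 over the 16 libraries, as a description. PTPRM was most like TENM1 (r = 0.99, span 588 kb) and MYO1D (0.98, 385 kb). PTPRG was most like STS (r = 0.98, 135 kb) and IL1R1 (0.98, 115 kb), both shorter genes. PTPRK was most like MAML2 and SASH1 (both 0.99, 367 and 280 kb), PTPRE like CPPED1 and INVS (both 0.98), and PTPRA like SGPP2 and TMOD1 (both 0.99). PTPRJ was most like LRP6 and GLB1 (both r = 0.94), PTPRS like COG7 (0.98) and KIF12 (0.97), and PTPRF like PTK7 (0.98). Among the 8, the 28 pairs correlated at 0.48 to 0.97. The highest pairs were PTPRK with PTPRA (0.97), and PTPRE with PTPRK and with PTPRA (both 0.96), and the lowest was PTPRJ with PTPRF (0.48). PTPRM and PTPRG correlated at 0.93, and PTPRF and PTPRS, the pair that differed between replicates, at 0.89. All these values share the libraries and their split into untreated and cisplatin-treated groups.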

How the data were processed

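RNA from SK-OV-3 cells was sequenced in 16 libraries, 2 for each of 8 groups set by the labels. The authors deposited 1 table of linear RPKM values with a column per library, per the file headers. Every value column was matched to a library by its name. HISAT2, DESeq2 and the builds GRCh37 and mm9 are named, without roles or versions, per the submitters' processing notes. The counter, annotation release and handling of duplicates: not given in the sources used here. The TruSeq kit named in the labels does not mark the strand.

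The 8 genes and all gene lists were chosen with earlier results of these data known. Tests used limma 3.58.1 in R 4.3.3 with a trended prior on log2(RPKM + 1), which understates changes of low genes. The 18149 genes with at least 1 RPKM in 2 libraries entered 1 model of 8 group means, with Benjamini-Hochberg adjustment over all of them within each comparison. Whole reads, used for depth and for voom with TMM scaling, were recovered for 40649 of 40649 genes (within 0.01 reads). The scripts were tested on simulated data.

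Named were the 8 genes, PRMT1, up to 3 called genes per direction, list and comparison with the lowest adjusted p (a part of these is printed), genes overlapping a span, and the 2 genes most correlated with each of the 8, of which 1 is not reported here. The differences between replicates 2 and 1 correlated at 0.296 to 0.699 in all 28 pairs of groups, so the numbers were read as pairs. The main fit, which gave every p-value unless stated, did not use this pairing. For PTPRS with #1 untreated, the standard error was 0.32 in the main fit and 0.14 with the replicate block. The block is shown where it changes a call of the 8 genes or of a named gene's printed comparison.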

Additional observations from a re-analysis of the deposited data

Results flagged for a closer look

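For 4 of the 8 genes the cisplatin response of shPRMT1 cells differed from that of shScramble cells in the limma test of the difference. It was more positive for PTPRM (1.18) and PTPRG (1.11) and more negative for PTPRE (-0.59) and PTPRK (-0.52), log2 scale, limma adjusted p = 0.00329, 0.00974, 0.0184 and 0.0173. Over all tested genes, 2.08% were called positive and 3.11% negative. The 8 genes were listed with the cisplatin responses that enter this difference known. The PTPRG, PTPRE and PTPRK calls each ended without some single shScramble library. Those of PTPRE and PTPRK also ended with a common median.

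The shRNAs differed from each other in 16 of 48 comparisons, in which 4.62% to 16% of all tested genes were called. For PTPRG, #1 minus #3 was -0.82 treated, #1 minus #5 was 0.76 untreated and 0.69 treated, and #3 minus #5 was 1.07 untreated and 1.51 treated. For PTPRJ, #1 minus #3 was -0.52 untreated and -0.55 treated, #1 minus #5 was 0.67 and 0.45, and #3 minus #5 was 1.19 and 1.00. PTPRS with #1 was below #3 (-1.26) and #5 (-1.35) when untreated, PTPRK with #1 below #3 (-0.38) and PTPRE with #1 below #5 (-0.33), a call that was made in 0 of 16 fits without 1 library. PTPRM with #1 was below #3 under cisplatin (-0.56), a call that ended in 15 of 16 fits without 1 library. These comparisons were chosen after the values were seen.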

How the results depend on the processing

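The cisplatin responses in shScramble and averaged shPRMT1 cells, the averaged PRMT1 differences and the averaged difference between responses were recomputed under other settings. These were a pseudocount of 0.1, no filter, a replicate block, a common median, voom on recovered reads and leaving out each library. A fit of only the compared libraries was added, except for the difference between responses. No direction reversed there for a called value. Comparisons of single shRNAs or shRNA pairs were recomputed only with the replicate block, with voom and without each library. The counts of called genes moved. Block and pairing refer to the replicate numbers. In untreated cells they were 800 higher and 696 lower, 399 and 332 with a common median, 422 and 353 with only the compared libraries, and 1939 and 1749 with the replicate block, where 1 of the 8 phosphatase genes was higher (also 1 with voom). Under cisplatin they were 1894 and 1699, 922 lower with a common median, 935 and 918 with only the compared libraries, and 3287 and 3001 with the block. Of the 8 genes, 1 rather than 3 was then lower with a common median and 1 with only the compared libraries. The differences between responses numbered 378 and 564, 213 and 193 with a common median, and 1125 and 1412 with the block, and 0 of the 8 genes were negative with a common median. The cause was not tested.

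The counts fell by over 1.5 times without either untreated shScramble library in untreated cells, and without either treated shScramble library under cisplatin. For the difference between responses they fell so without any of the 4 shScramble libraries and, in at least 1 direction, without any of the 4 shPRMT1 #3 libraries. Without 1 library, the calls in untreated cells ran from 184 to 982 higher and 156 to 818 lower, with 0 of the 8 genes called. Under cisplatin they ran from 576 to 2245 and from 507 to 1903, with 2 of the 8 genes higher and 1 to 3 lower. The differences between responses ran from 67 to 460 and from 125 to 622, with 1 to 2 of the 8 positive and 0 to 2 negative. For cisplatin against untreated they ran from 1851 to 3156 and from 1683 to 2913 in shScramble cells, and from 4924 to 5672 and from 3910 to 4470 in shPRMT1 cells. A common median moved the median of all genes from 0.04 to 0.15 for cisplatin in shPRMT1 cells, and the share of higher calls from 56.3% to 66.9%. In shScramble cells the lower calls went from 2659 to 1683 without cisplatin replicate 2, and the higher calls from 2815 to 1851 without untreated replicate 2. PTPRG in shScramble cells changed by -4.39 with the smaller pseudocount and PTPRM by -3.89, and by -4.62 and -4.03 with voom. The 114 to 169 reads of these genes in treated shScramble libraries limit how precisely their level left is known.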
